A study of Sus scrofa with 18 samples.

Results

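The comparison described here is the interval from 0.5 h to 1 h of treatment with all-trans retinoic acid (ATRA), and its members are the 3 arrays of cells collected at 0.5 h and the 3 arrays collected at 1 h, 6 of the 18 arrays of the series, chosen by their titles. All arrays carry total RNA of LLC-PK1, a continuous epithelial line from pig kidney that is used as a model of the proximal tubule. The cells were grown past confluence before ATRA was added, and the other arrays were collected at 0 h, before treatment, and at 4, 8 and 12 h, with 3 biological replicates at each time. The labels used here give no dose of ATRA, and no arrays of cells given solvent alone were analysed here, so treatment and time after handling cannot be told apart. Each value is a log2 signal of 1 probe set, a set of probes for 1 transcript, on an Affymetrix porcine array.

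ATRA is the form of vitamin A that binds nuclear retinoic acid receptors, which sit on DNA with RXR partners and raise transcription of genes such as CYP26A1 once the ligand arrives. Cells that receive a growth, stress or mechanical signal respond on another path, in waves. Immediate early genes, many of which code for transcription factors, are transcribed first from factors already in the cell, and their messages are short-lived; delayed genes, among them secreted ligands, feedback inhibitors and cytoskeletal proteins, follow. The comparison of 1 h with 0.5 h asks which transcripts were added between these early times and which had already started to decline.

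The labelled cell type was checked first. Of the proximal tubule markers, 7 of 8 were measured, and LRP2, the megalin endocytic receptor, had mean signals of 11.72 at 0.5 h and 11.77 at 1 h, while HNF4A, a transcription factor of proximal tubule cells, had 8.57 and 8.51. Among epithelial markers KRT8, a keratin, was at 11.72 and 11.79, and CLDN7, a claudin, was at 3.83 and 3.96, near the lower quartile of the arrays, which ran from 3.73 to 3.82 on the 6 arrays. Leukocyte and endothelial markers were low (PTPRC at 3.01 and 2.83, TEK at 2.94 and 2.90), although CD3E, a T cell receptor subunit, was at 7.87 and 7.76. COL1A2, a collagen chain listed as a mesenchymal marker, was at 11.92 and 11.86. The median of the 5 measured mesenchymal markers was lower, at 5.94 to 6.60 on the 0.5 h arrays and 6.03 to 6.35 on the 1 h arrays. None of the 28 measured markers of the 6 marker lists passed the test in limma, against 0.267% higher and 0.0485% lower of named genes. For so few markers, 0 calls is near those shares. In limma 1 marker had an unadjusted p under 0.05, against 349 higher and 406 lower of 12361 named genes. Over these lists the medians of the difference ran from -0.15 for leukocytes to 0.16 for other nephron segments. Because the samples are bulk RNA, fewer cells of a kind and less RNA per cell cannot be told apart.

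Signals correlated at 0.9865 to 0.9946 across probe sets between replicates of the same time and at 0.9845 to 0.9924 between the times. Replicate 1 stood apart at both times. At 1 h it correlated at 0.988 and 0.9865 with the other replicates, which correlated at 0.9946 with each other. At 0.5 h these values were 0.9906, 0.9894 and 0.9941. Deviations of replicate 1 from the time means correlated at 0.4238 between 0.5 and 1 h. The number of arrays limits the precision, and the median standard error (SE) of a difference between 1 h and 0.5 h was 0.149. Differences below are 1 h minus 0.5 h on the log2 scale with their SE from limma, n is 3 arrays per time, and adjusted p is Benjamini-Hochberg over 27558 probe sets; a call is an adjusted p under 0.05. The labels call the replicates biological without naming separate cultures, so p-values measure the spread between these samples.

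Among the calls between 0.5 and 1 h, rises outnumbered falls: 142 probe sets rose (0.515% of those tested) and 12 fell (0.0435%). Some probe sets carry identical values on all arrays, and these 154 calls hold 144 distinct profiles. Among 12361 genes with 1 symbol, 33 rose (0.267%) and 6 fell (0.0485%), with 19 of these rises reaching 2-fold. Below the threshold of a call the balance of named genes lay the other way: 42.3% of all their differences were above 0, 349 were higher and 406 lower at an unadjusted p under 0.05, and 700 lay higher and 989 lower without overlap between the times. Over all probe sets the unadjusted counts were 1287 higher and 804 lower, and median centring of the arrays turned them to 1006 higher and 1333 lower. Without the unnamed probe sets of lowest IDs, described below, the unadjusted counts were 905 higher and 805 lower. Those probe sets also hold 75 of the 142 called rises. The largest rises were those of ANKRD1, EDN1, PLAT and TAGLN, and the largest fall was that of DDIT4. When the replicate number entered as a block, 221 probe sets rose (0.802%) and 27 fell (0.098%), or 56 genes (0.453%) and 17 genes (0.138%), and all 39 genes called without the block were called with it. A fit of the 6 arrays alone called 67 probe sets as higher and 0 as lower in limma (780 lower at an unadjusted p under 0.05), and 10 of the 33 rising genes passed in it. Each fit without 1 array called fewer rises in all: 36 without replicate 2 of 1 h, 38 without replicate 2 of 0.5 h, 42 without replicate 3 of 1 h, 67 without replicate 3 of 0.5 h, 72 without replicate 1 of 0.5 h and 77 without replicate 1 of 1 h. In those fits 11 rising genes and DDIT4 kept their call every time: PLAT, MIR92A-1, MIR18A, TUFT1, HBEGF, CYP26A1, LIF, PLK3, MIR222, SLC19A2 and ELMSAN1. Of these, HBEGF, CYP26A1, LIF, ELMSAN1 and DDIT4 were not called in the fit of the 6 arrays alone. Without replicate 1 of 1 h some other genes passed that did not with it, among them ATF3, NR4A3, BTG2, MAFF, CYR61, TNFAIP3 and RNF220.

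**Figure D1:**
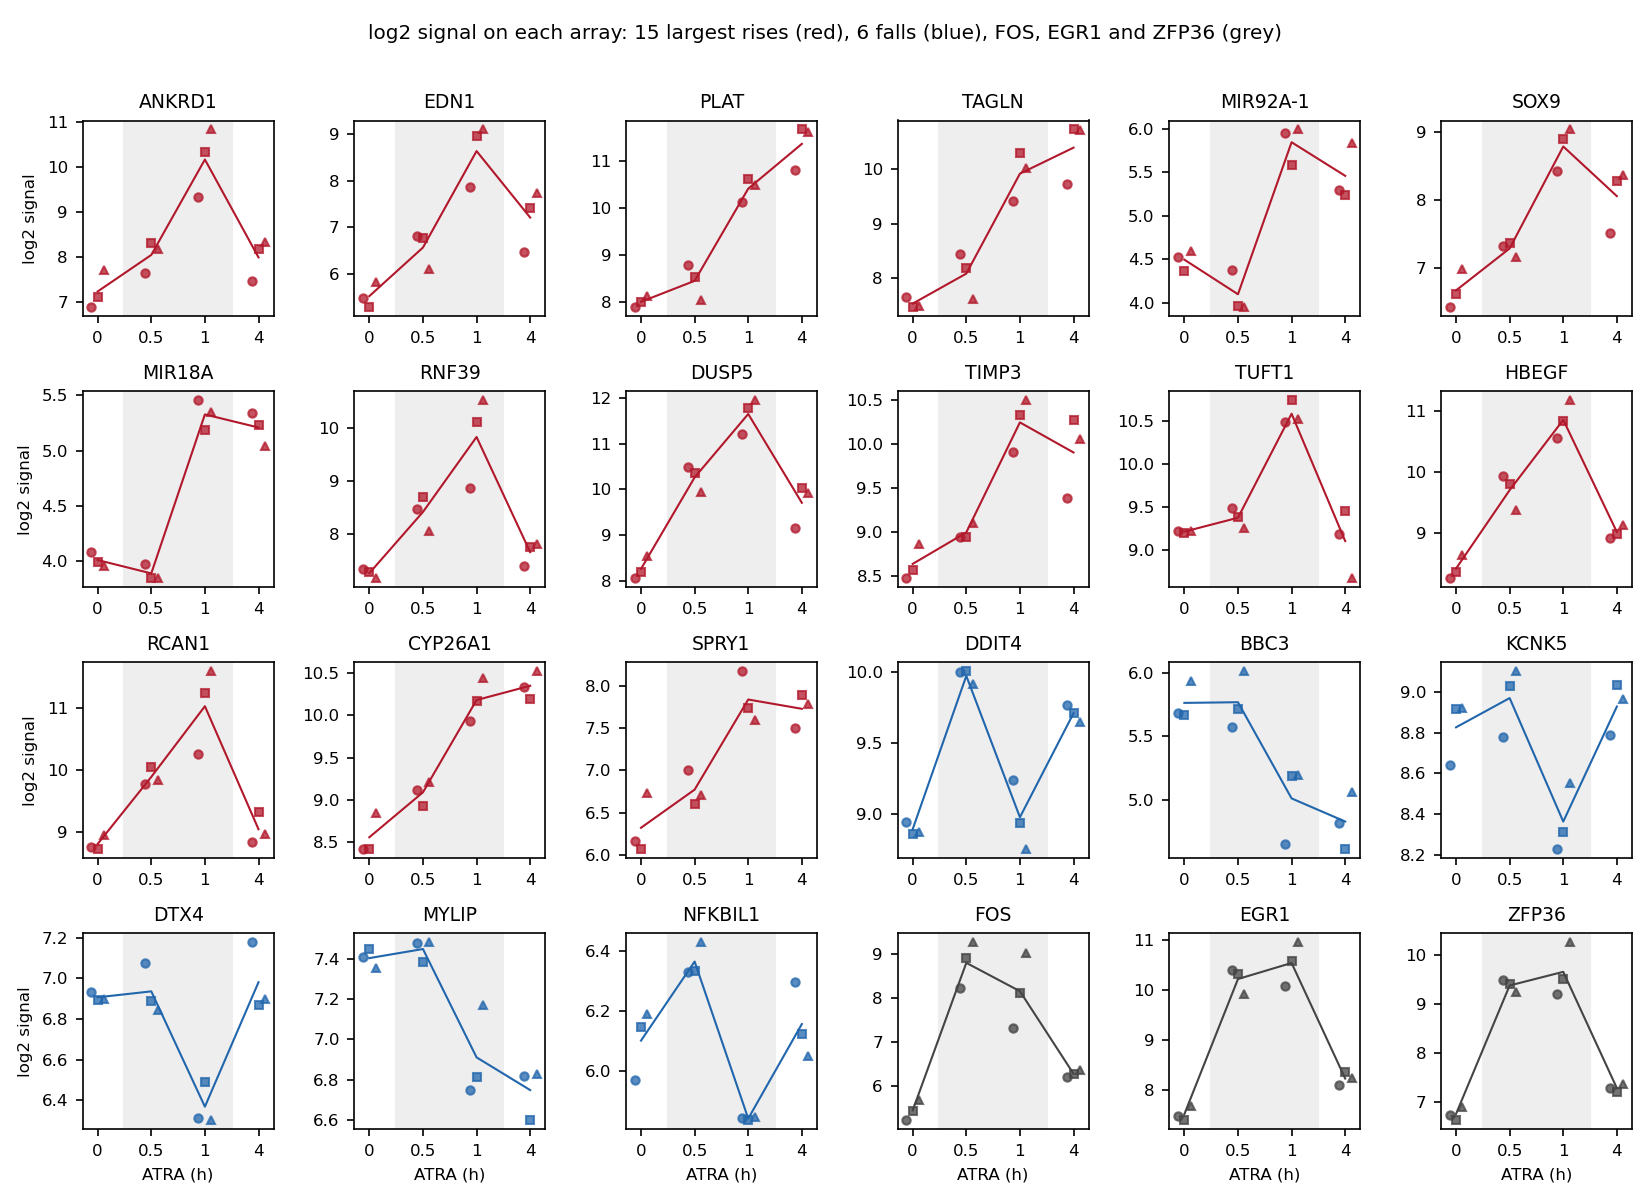
Log2 signal (y axis, a separate range in each panel) at 0, 0.5, 1 and 4 h of ATRA (x axis, times evenly spaced) for the 15 largest rises in red, the 6 falls in blue and FOS, EGR1 and ZFP36 in grey; circles, squares and triangles are replicates 1, 2 and 3, and lines join the means. In every red panel the 3 points at 1 h lie above the 3 at 0.5 h, with PLAT between 10.12 and 10.62 at 1 h, while DDIT4 is back near its level at 0 h.

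Transcription factors of the immediate early class were measured for 17 of 28 listed genes. Of these 2 rose between 0.5 and 1 h and 0 fell in limma, against 0.267% and 0.0485% of named genes. At an unadjusted p under 0.05, 8 were higher and 1 lower, against 349 and 406 of 12361 named genes. The list median was 0.36 against -0.03 for all named genes. In the preceding interval, from 0 to 0.5 h, 7 of the 17 had risen, with a median of 0.94, against 0.202% of named genes. SRF, the serum response factor that switches on many of these genes together with actin genes, had signals of 8.64, 8.34 and 8.05 at 0.5 h and 9.0, 9.44 and 9.38 at 1 h. It rose 1.90-fold (0.93 ± 0.18, adjusted p = 0.0276), with no overlap between the times. NFIL3, a bZIP repressor of transcription, rose 1.75-fold, from 8.28, 8.12 and 8.33 to 8.77, 9.18 and 9.18 (adjusted p = 0.0130). The call on SRF was lost in 4 of 6 fits without 1 array and that on NFIL3 in 3 of 6.

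The immediate early factors with the largest changes in the first interval did not pass in the second. FOS, a subunit of AP-1, had signals of 8.22, 8.90 and 9.27 at 0.5 h and 7.33, 8.12 and 9.01 at 1 h. The difference was -0.64 ± 0.33 (adjusted p = 0.732, and 0.373 with the replicate block). The times overlapped, but FOS was lower at 1 h in each of the 3 pairs of arrays with the same number. EGR1, a zinc finger factor, was at 10.41, 10.33 and 9.92 and then at 10.08, 10.59 and 10.96 (0.32 ± 0.19, adjusted p = 0.811). Its relative EGR2 spread most at 1 h, with 7.58, 8.73 and 9.88. Replicate 1 was the lowest of the 3 arrays at 1 h for all 3 of these genes, and for FOS and EGR2 also at 0.5 h. ATF3, a stress-induced repressor, gave 10.07, 10.23 and 9.97 at 0.5 h and 10.17, 11.23 and 11.72 at 1 h (0.94 ± 0.27, adjusted p = 0.201), with replicate 1 inside the range of the earlier time. MYC and the nuclear receptor NR4A3 differed by 0.85 ± 0.33 and 1.10 ± 0.33 (adjusted p = 0.488 and 0.242), and JUN and IER2 by 0.20 and 0.22. MAFF, a small Maf protein named after its values were seen, had the largest difference of the list at 1.57 ± 0.39 (5.37, 5.14 and 5.21 against 5.77, 7.37 and 7.29); it did not pass (adjusted p = 0.112) but did with the replicate block (0.0465) and without replicate 1 of 1 h. FOSB, JUNB, EGR3, NR4A1, KLF4, KLF6 and DUSP6 were not analysed here, since no probe set carries 1 of these as its only symbol.

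Factors that shorten the life of mRNA or hold back division showed no call among 10 measured genes in limma (median 0.14). At an unadjusted p under 0.05, 3 were higher and 0 lower, against 349 and 406 of 12361 named genes. ZFP36, which binds AU-rich elements and speeds decay of cytokine mRNA, was at 9.48, 9.40 and 9.25 and then at 9.20, 9.50 and 10.26 (0.28 ± 0.19, adjusted p = 0.883). BTG2, an antiproliferative cofactor of deadenylation, differed by 0.49 ± 0.20 (adjusted p = 0.516). For both genes the 1 h values spread around or past those at 0.5 h, with replicate 3 the highest.

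Inhibitors that feed back on ERK and other MAP kinases had 3 of 14 higher and 0 lower, against 0.267% and 0.0485% of named genes. The median was 0.32, and 4 were higher with the replicate block, against 0.453%. DUSP5, a phosphatase of nuclear ERK, had signals of 10.48, 10.36 and 9.94 at 0.5 h and 11.21, 11.79 and 11.94 at 1 h, with a mean of 8.26 at 0 h. It rose 2.61-fold (1.38 ± 0.24, adjusted p = 0.0161). SPRY1, a Sprouty inhibitor of receptor tyrosine kinase signalling, rose 2.09-fold, from 7.01, 6.60 and 6.71 to 8.17, 7.74 and 7.60 (1.07 ± 0.22, adjusted p = 0.0400), and its paralog SPRY2 rose 1.80-fold, from 6.14, 6.27 and 6.05 to 6.96, 6.95 and 7.10 (adjusted p = 0.0308). Here replicate 1 was the highest array at 1 h for SPRY1, unlike for ATF3 or DUSP5. The SPRY1 and SPRY2 calls were lost whichever of the 6 arrays was left out (highest adjusted p 0.191 and 0.133) and the DUSP5 call for 4 of the 6 arrays, and median centring of the arrays also ended that on SPRY1. DUSP10, a phosphatase of p38 and JNK named after its values were seen, differed by 1.30 ± 0.34 (adjusted p = 0.140), and IER3 and DUSP1 by 0.86 and 0.32, neither passing. PHLDA1 differed by 0.75 (adjusted p = 0.628, and 0.0337 with the block).

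Genes used as readouts of YAP and of SRF, factors that respond to tension of the actin skeleton, had a median of 0.22. Of 19 measured members 2 were higher and 0 lower, against 0.267% and 0.0485% of named genes. With the replicate block 3 were higher, against 0.453%. ANKRD1, a nuclear ankyrin repeat protein of this group, had the largest rise of any named gene. Its signals were 7.66, 8.32 and 8.18 at 0.5 h and 9.33, 10.34 and 10.84 at 1 h, a 4.35-fold rise (2.12 ± 0.36, adjusted p = 0.0146), and the mean at 4 h was back at 8.00. TAGLN, the smooth muscle actin-binding protein transgelin, went from 8.45, 8.19 and 7.62 to 9.42, 10.30 and 10.02, a rise of 3.56-fold (1.83 ± 0.38, adjusted p = 0.0432), and its mean of 10.39 at 4 h was no lower than at 1 h. The ANKRD1 call needed replicate 1 of 0.5 h and replicates 2 and 3 of 1 h (adjusted p reached 0.0771 without one of them). The TAGLN call was lost whichever of the 6 arrays was left out, with an adjusted p as high as 0.192. CYR61, a secreted matricellular protein of the same group, was at 10.38, 10.47 and 10.11 and then at 10.79, 11.58 and 11.70 (1.04 ± 0.25), without overlap; it did not pass (adjusted p = 0.105) but did with the block (0.0325) and without replicate 1 of 1 h. CTGF, its relative, differed by 1.16 ± 0.45 with overlapping values (adjusted p = 0.500).

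RCAN1, an inhibitor of the calcium-dependent phosphatase calcineurin, is on none of the lists. It rose 2.20-fold (9.77, 10.06 and 9.85 to 10.27, 11.24 and 11.60; adjusted p = 0.0443). The RCAN1 call was lost in 5 of 6 fits without 1 array and under median centring.

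Among ligands that cells release to themselves and to neighbours, 3 of 20 rose and 0 fell (median 0.14). Of all named genes 0.267% rose and 0.0485% fell. EDN1, the precursor of endothelin-1, rose 4.20-fold: its signals were 6.81, 6.77 and 6.11 at 0.5 h and 7.86, 8.95 and 9.10 at 1 h (2.07 ± 0.34, adjusted p = 0.0130). HBEGF and EREG are ligands of the epidermal growth factor receptor family. HBEGF, already higher at 0.5 h than at 0 h, rose a further 2.23-fold, from 9.93, 9.80 and 9.37 to 10.56, 10.83 and 11.18 (1.16 ± 0.16, adjusted p = 0.00529). EREG stood at a mean of 8.49 at 0 h and of 8.68 at 0.5 h and rose 2.02-fold to 9.53, 9.63 and 9.93 (1.02 ± 0.16, adjusted p = 0.0117). AREG, a further ligand of that receptor, had a low signal, with a mean of 2.49 at 0.5 h, and differed by 0.21 (adjusted p = 0.893). JAG1, a Notch ligand, differed by 0.59 (adjusted p = 0.244, and 0.0170 with the block). The EDN1 call was lost in 3 of 6 fits without 1 array (without replicate 3 of 0.5 h, or replicates 2 or 3 of 1 h) and the EREG call in 2.

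Of 13 receptors measured, 1 rose and 0 fell (median 0.10), against 0.267% and 0.0485% of named genes. EPHA2, an ephrin receptor tyrosine kinase, rose 1.83-fold from 8.64, 8.63 and 8.62 to 9.22, 9.65 and 9.63 (adjusted p = 0.0266). PLAUR, the urokinase receptor, differed by 0.91 ± 0.22 without overlap (5.34, 5.09 and 5.0 against 5.98, 6.04 and 6.13) and did not pass (adjusted p = 0.102). P2RY1, a receptor for ADP, differed by 0.59 and passed with the block (adjusted p = 0.0443). ACKR3, an atypical receptor that takes up the chemokine CXCL12, is on no list and was named because it was called; it rose 1.51-fold, from 8.34, 8.13 and 8.24 to 8.71, 8.87 and 8.94 (adjusted p = 0.0134). The calls on EPHA2 and ACKR3 were lost in 5 and 3 of 6 fits without 1 array.

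Cytokines and other targets of NF-kappaB had 2 of 23 members higher and 0 lower, against 0.267% and 0.0485% of named genes. At an unadjusted p under 0.05, 13 were higher, against 349 of 12361 named genes, and the median was 0.34. With the block 5 rose, against 0.453%. LIF, a cytokine of the interleukin-6 family, rose 1.68-fold from 6.47, 6.29 and 6.15 to 7.14, 7.02 and 7.0 (0.75 ± 0.11, adjusted p = 0.00553), and the times did not overlap. IRF1, an interferon regulatory factor, rose 1.73-fold from 8.34, 7.80 and 7.58 to 8.70, 8.71 and 8.70 (adjusted p = 0.0230). Leaving out 5 of the 6 arrays, 1 at a time, ended this call. CXCL8, the neutrophil chemokine interleukin-8, had the largest difference of the list but spread more. Its signals were 8.79, 8.70 and 8.51 and then 9.28, 10.70 and 10.92 (1.63 ± 0.48), and it did not pass without the block (adjusted p = 0.227, and 0.0364 with it). CCL20 and IL6 differed by 1.37 ± 0.38 and 1.23 ± 0.38 (adjusted p = 0.178 and 0.282). TNFAIP3, the ubiquitin-editing inhibitor A20 of NF-kappaB, differed by 1.15 ± 0.25 (adjusted p = 0.0571, and 0.0210 with the block), and NFKBIZ by 0.62 (0.0112 with the block). The neutrophil chemokine CXCL2 had 4 probe sets, of which 1 rose (0.99 ± 0.17, adjusted p = 0.0139) while the brightest, which represents the gene here, differed by 0.52 ± 0.12 (adjusted p = 0.0602). All 4 lay in the same direction, and 2 of them carry identical values.

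Proteases of the extracellular space and their inhibitors had 2 of 17 measured members higher and 0 lower (median 0.04). Of all named genes 0.267% were higher and 0.0485% lower. PLAT, the tissue plasminogen activator, differed little between 0 and 0.5 h (0.45), with a mean of 8.00 at 0 h and signals of 8.77, 8.52 and 8.03 at 0.5 h. At 1 h its signals were 10.12, 10.62 and 10.47, a 3.9-fold rise (1.96 ± 0.24, adjusted p = 0.00298), and at 4 h the mean was 11.36. TIMP3, a matrix-bound inhibitor of metalloproteinases, rose 2.38-fold from 8.94, 8.94 and 9.10 to 9.91, 10.33 and 10.50 (1.25 ± 0.21, adjusted p = 0.0134). Leaving out 4 of the 6 arrays, 1 at a time, ended this call. PLAU, the urokinase, was at 6.93, 6.84 and 6.78 and then at 7.67, 8.21 and 8.35 (1.23 ± 0.34), and did not pass (adjusted p = 0.183, and 0.0577 with the block). The members at or near zero difference were mostly metalloproteinases, such as MMP3 at 0.00 and MMP7 at 0.09.

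For genes of retinoid handling and reception, the direct machinery of ATRA, 1 of 18 rose and 0 fell in limma. Of all named genes 0.267% rose and 0.0485% fell. At an unadjusted p under 0.05, 2 of the 18 were higher and 2 lower, against 349 and 406 of 12361 named genes. Differences above 0 were 5 of 18, with a median of -0.03, the same as for all named genes, of which 42.3% were above 0. CYP26A1, the cytochrome P450 that clears retinoic acid, had signals of 9.12, 8.93 and 9.22 at 0.5 h and 9.94, 10.17 and 10.44 at 1 h. The 2.13-fold rise (1.09 ± 0.16, adjusted p = 0.00553) kept its call in all 6 fits without 1 array. It was not called in the fit of the 6 arrays alone. Its mean was 8.56 at 0 h and 10.35 at 4 h, so nearly all of its level at 4 h was in place at 1 h. DHRS3, a reductase that returns retinaldehyde to retinol, was at 8.48, 8.22 and 7.89 and then at 8.97, 8.86 and 8.71 (0.65 ± 0.14, adjusted p = 0.0537, and 0.0406 with the block), and reached a mean of 10.07 at 4 h. RARB, a receptor gene that many cell types raise after retinoic acid, had a difference of -0.22 ± 0.18 with overlapping times (adjusted p = 0.933).

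Of 17 measured TGF-beta, BMP, WNT and Notch targets 1 rose and 0 fell (median 0.06), against 0.267% and 0.0485% of named genes. It was SOX9, a transcription factor of progenitor and injured tubule cells. Its signals of 7.33, 7.37 and 7.17 at 0.5 h became 8.42, 8.90 and 9.04 at 1 h, a 2.82-fold rise (1.5 ± 0.24, adjusted p = 0.0120), lost without replicate 2 or replicate 3 of 1 h. ID2 and ID1, inhibitors of bHLH factors, differed by 0.04 and -0.34, and neither passed (adjusted p = 0.995 and 0.596).

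Among 16 measured p53 targets 2 rose and 1 fell (median -0.01), against 0.267% and 0.0485% of named genes. The risers were polo-like kinases that are also induced by serum and stress. PLK3 rose 2.09-fold from 6.97, 6.79 and 6.59 to 7.69, 7.91 and 7.95 (1.06 ± 0.15, adjusted p = 0.00621), and PLK2 2.08-fold from 10.69, 10.85 and 10.77 to 11.39, 11.84 and 12.25 (adjusted p = 0.0357). BBC3, the proapoptotic BH3 protein PUMA, fell 1.69-fold, from 5.57, 5.72 and 6.01 to 4.65, 5.18 and 5.19 (-0.76 ± 0.16, adjusted p = 0.0444). The BBC3 call was lost in 6 of 6 fits without 1 array and the PLK2 call in 5 of 6.

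The microRNA genes include a set that rose in this interval from a flat or slightly lower start. Of 161 microRNA genes with a probe set, 3 rose and 0 fell, against 0.267% and 0.0485% of named genes. The median difference was 0.02. MIR92A-1 had signals of 4.38, 3.96 and 3.94 at 0.5 h and 5.96, 5.59 and 5.99 at 1 h, a 3.36-fold rise (1.75 ± 0.24, adjusted p = 0.00535). MIR18A rose 2.7-fold, from 3.98, 3.85 and 3.85 to 5.45, 5.18 and 5.34 (1.43 ± 0.18, adjusted p = 0.00298). Both belong to the MIR17 cluster, a run of precursors cut from 1 long transcript that is known for promoting proliferation, and in the RefSeq gene table for Sscrofa11.1 the 6 members follow one another without another gene between them. The 4 other members, named after their values were seen, had differences of 1.54 ± 0.39 for MIR19B-1, 1.39 ± 0.31 for MIR19A, 0.61 ± 0.30 for MIR17 and 0.49 ± 0.18 for MIR20A; none passed (adjusted p = 0.118, 0.0611, 0.705 and 0.458). All 4 were dim, with means at 0.5 h of 3.07, 1.97, 2.01 and 1.77, below the lower quartile of the arrays. MIR222 rose 2.03-fold, from 3.39, 3.31 and 3.45 to 4.42, 4.35 and 4.45 (1.02 ± 0.11, adjusted p = 0.00201), and was at 3.32 at 4 h; its 0.5 h signals also lay below the lower quartile. Its neighbour in that table, MIR221, differed by 0.78 ± 0.32 with overlap (adjusted p = 0.537). MIR21, which had risen by 2.11 in the first interval, differed by 0.52 ± 0.24 (adjusted p = 0.639). The files do not say whether these probe sets read the precursor or the mature form.

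The other called rises belong to no list or fall outside the naming rule. TUFT1, tuftelin, was called by both of its probe sets: the brighter went from 9.49, 9.39 and 9.26 to 10.49, 10.74 and 10.52 (1.20 ± 0.15, adjusted p = 0.00326) and the other differed by 1.33 ± 0.14. At 4 h the brighter probe set was back at a mean of 9.11, against 9.22 at 0 h. RNF39, a RING finger gene, rose 2.65-fold with a wide spread at 1 h (8.86, 10.10 and 10.51; adjusted p = 0.0442, lost in 5 of 6 fits without 1 array and under median centring). SLC19A2, the high-affinity thiamine transporter, spread little between arrays: 8.48, 8.45 and 8.48 became 9.12, 9.20 and 9.24 (0.72 ± 0.11, adjusted p = 0.00838). ELMSAN1, a scaffold of a histone deacetylase complex, rose 1.86-fold and IFRD1, a transcriptional coregulator, 1.70-fold. Smaller rises were those of C9H11orf70 (1.76-fold), RAB9A, a GTPase of transport from late endosomes (1.69-fold), and TSC22D2 (1.49-fold). The calls on IFRD1, RAB9A, TSC22D2 and C9H11orf70 were lost in 5, 4, 3 and 2 of 6 fits without 1 array.

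Called declines were few, at 6 named genes, or 17 with the replicate block, and DDIT4 was the clearest. DDIT4, known as REDD1, restrains the mTORC1 growth pathway and responds to hypoxia, energy stress and glucocorticoids. Its signals were 10.00, 10.00 and 9.91 at 0.5 h and 9.24, 8.94 and 8.75 at 1 h, a 2.00-fold fall (-1.0 ± 0.14, adjusted p = 0.00553), after a mean of 8.89 at 0 h. At 4 h the mean was 9.71. It was the single fall among 15 measured glucose and hypoxia genes, against 0.0485% of named genes, and 0 rose (median -0.10). ADM, adrenomedullin, a further gene of that list that had risen by 0.5 h, differed by -0.13 ± 0.26. Its 1 h values spread from 7.01 to 8.44.

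The other falls were near 1.5-fold and each was lost in at least 5 of 6 fits without 1 array. KCNK5, a background potassium channel of the proximal tubule, fell 1.52-fold, from 8.78, 9.03 and 9.10 to 8.23, 8.31 and 8.55 (-0.61 ± 0.13, adjusted p = 0.0444); its dimmer probe set differed by -0.68 ± 0.20 and did not pass (adjusted p = 0.237, and 0.0426 with the block), and quantile normalization ended the call on the brighter. DTX4, a Deltex ubiquitin ligase, fell 1.48-fold, from 7.07, 6.89 and 6.84 to 6.31, 6.49 and 6.30 (adjusted p = 0.0308). MYLIP, the ubiquitin ligase that marks the LDL receptor for degradation, fell 1.45-fold, from 7.48, 7.38 and 7.48 to 6.75, 6.82 and 7.17 (adjusted p = 0.0357). NFKBIL1, an IkappaB-like protein, fell 1.44-fold, from 6.33, 6.33 and 6.43 to 5.84, 5.84 and 5.85 (adjusted p = 0.0324). DTX4, NFKBIL1 and KCNK5 were again at means of 6.98, 6.16 and 8.93 at 4 h, against 6.91, 6.10 and 8.83 at 0 h. MYLIP and BBC3 stood at 6.75 and 4.83 at 4 h, against 7.40 and 5.76 at 0 h.

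Quiescence genes and alpha-arrestins, which tend to be high in resting cells, had no call among 15 members in limma, and 0 with the block. At an unadjusted p under 0.05, 1 was higher and 6 lower, against 349 and 406 of 12361 named genes. Below 0 lay 14 differences, with a median of -0.28, while 42.3% of all named genes lay above 0. TXNIP, the arrestin that restrains glucose uptake, was at 9.97, 10.28 and 10.81 and then at 9.20, 9.65 and 9.99 (-0.74 ± 0.21, adjusted p = 0.217). CCNG2, a cyclin of arrested cells, was at 8.12, 8.21 and 8.29 and then at 7.5, 7.54 and 7.72 (-0.62 ± 0.15, adjusted p = 0.105), and ARRDC3 at 10.05, 10.21 and 10.24 and then at 9.73, 9.70 and 9.67 (-0.47 ± 0.12, adjusted p = 0.124). The times did not overlap for CCNG2 and ARRDC3, which was also so for 8% of named genes in the downward direction, and for 5.66% in the upward one. BCL6 was the member above 0.

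Lists of later programmes had no member called in either direction in limma, against 0.267% higher and 0.0485% lower of named genes. In lists of this size, 0 calls is near those shares. They were ribosome biogenesis (17 measured, median 0.01), G1/S and DNA replication (10, -0.09), integrated stress and heat shock genes (15, 0.03), circadian regulators (11, 0.03), proximal tubule genes (15, -0.05) and cytosolic ribosomal proteins (12, 0.01). At an unadjusted p under 0.05 these lists held 1, 0, 2, 1, 0 and 0 members, against 349 higher and 406 lower of 12361 named genes. BHLHE40, a clock repressor that also answers to hypoxia and growth factors, had the largest difference among the circadian regulators at 0.69 ± 0.17 (adjusted p = 0.110), with no overlap between the times.

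**Figure D2:**
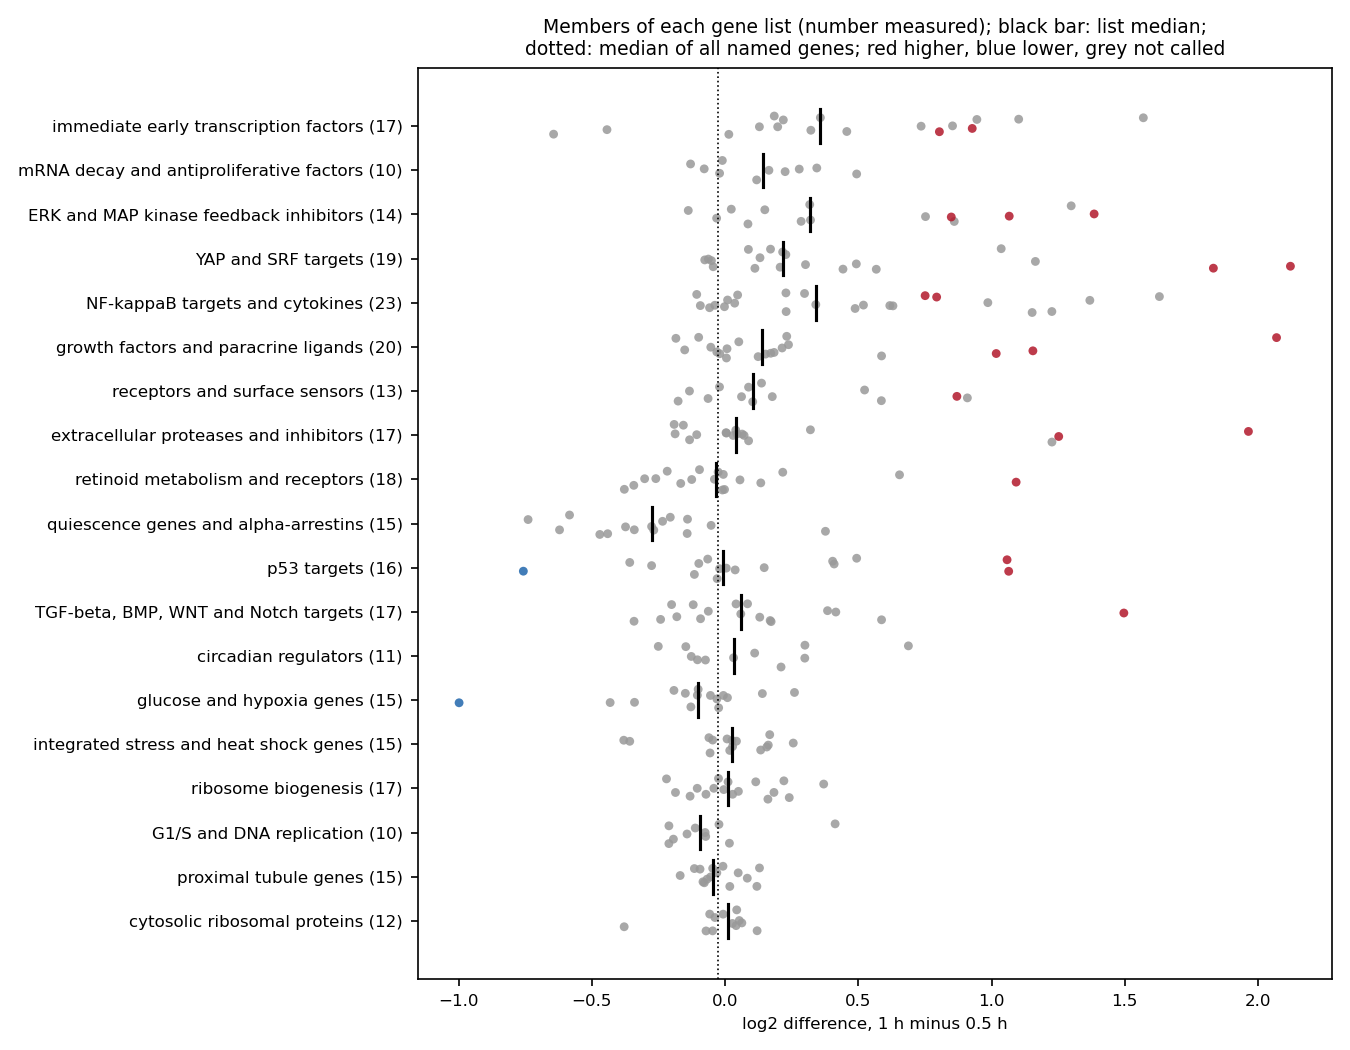
Log2 difference between 1 h and 0.5 h (x axis) for each measured member of 19 gene lists (rows, with the number measured); red members rose, blue fell and grey did not pass, black bars are list medians and the dotted line is the median of all named genes at -0.03. Immediate early factors (median 0.36), NF-kappaB targets (0.34) and ERK feedback inhibitors (0.32) have the highest medians, quiescence genes the lowest (-0.28), and tubule and ribosomal protein genes lie close to the dotted line.

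Because the intervals from 0 to 0.5 h and from 0.5 to 1 h are of equal length, the change in the second was tested against the change in the first as a contrast of its own (1 h minus 0.5 h, less 0.5 h minus 0 h). Both changes use the 0.5 h arrays, so their values are given side by side and only the contrast is a test. It called 5 probe sets whose second change was the lower (0.0181%) and 6 whose second change was the higher (0.0218%). FOS changed by 3.35 in the first interval and -0.64 in the second, a contrast of -3.99 ± 0.58 (adjusted p = 0.0145). EGR1 changed by 2.71 and then 0.32 (contrast -2.39 ± 0.33, adjusted p = 0.0130), and ZFP36 by 2.62 and then 0.28 (-2.34 ± 0.33, adjusted p = 0.0134). DDIT4 was the 1 named gene called in both intervals in opposite directions, at 1.08 and then -1.0 (contrast -2.08 ± 0.25, adjusted p = 0.00504). Both calls rest on the same 0.5 h arrays, with opposite sign, so they are not separate support. RNF220, a ubiquitin ligase gene, went the other way: signals of 4.44, 4.24 and 4.29 at 0 h, 3.05, 3.34 and 3.09 at 0.5 h and 3.64, 4.39 and 3.93 at 1 h (contrast 1.99 ± 0.32, adjusted p = 0.0395). Its 0.5 h signals lay below the lower quartile of the arrays, and leaving out dim probe sets reduced the 6 higher calls to 1. These calls depended on the 0.5 h arrays: without replicate 1 of 0.5 h it called 0 probe sets in either direction in limma (1351 at an unadjusted p under 0.05), without replicate 2 of 0.5 h DDIT4 was the 1 named gene left, and without replicate 3 of 0.5 h the calls on FOS, ZFP36 and RNF220 were lost. RNF220 kept its call in 1 of 9 fits without 1 array.

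For the named genes that rose in the second interval the contrast did not separate the intervals. PLAT changed by 0.45 and then 1.96 (contrast 1.52, adjusted p = 0.289), ANKRD1 by 0.81 and then 2.12 (adjusted p = 0.825) and TUFT1 by 0.16 and then 1.20 (adjusted p = 0.221). HBEGF rose by nearly the same amount in each interval, 1.29 and 1.16 (contrast -0.13, adjusted p = 1), as did ACKR3, 0.70 and 0.60. DUSP5 rose by 2.00 and then 1.38. These 3 are the named genes that were called as higher in both intervals; CYR61, at 2.54 and then 1.04, was called in the first; in the second it passed with the block or without replicate 1 of 1 h.

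**Figure D3:**
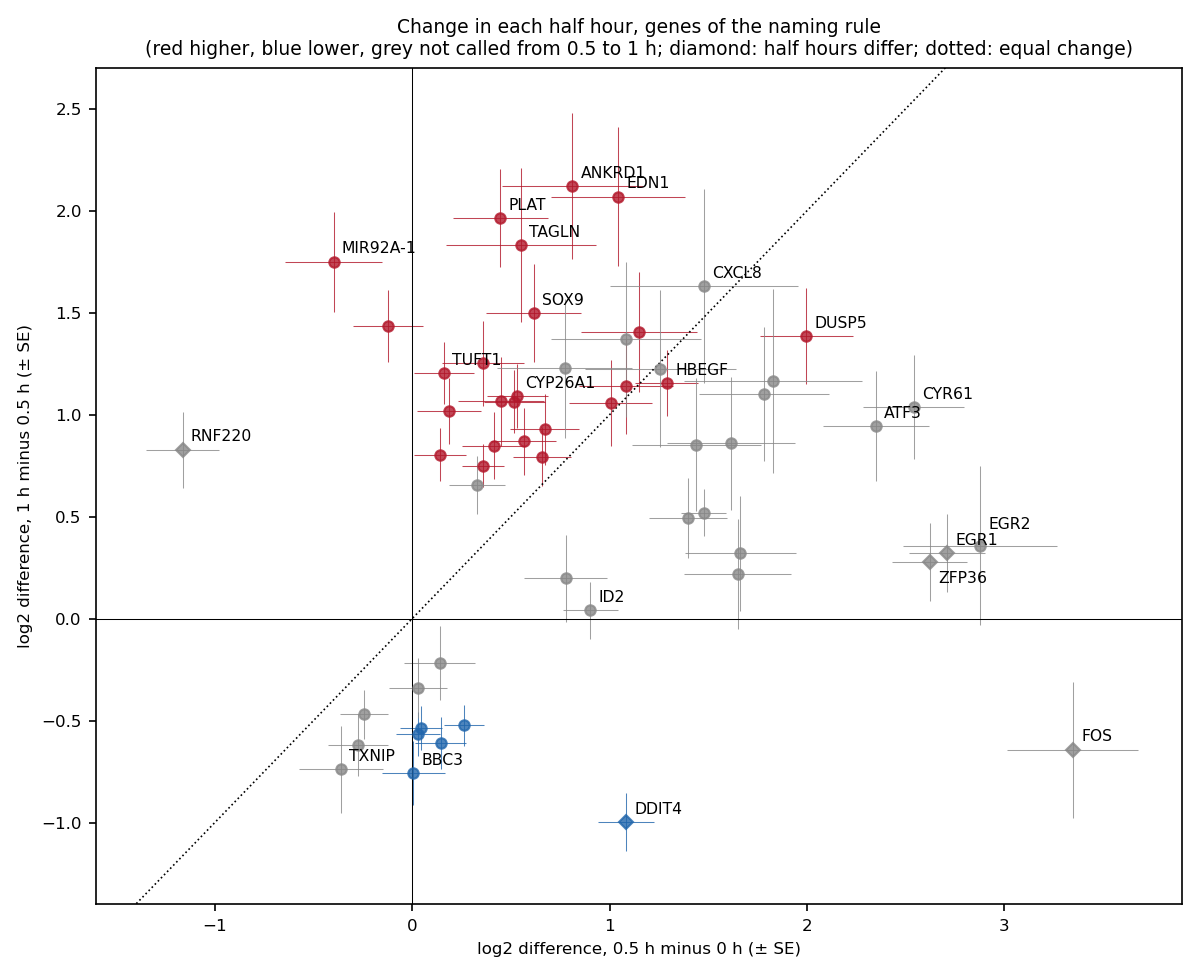
Log2 difference from 0 to 0.5 h (x axis) against that from 0.5 to 1 h (y axis), each with its SE, for the 57 genes of the naming rule; red rose, blue fell and grey did not pass between 0.5 and 1 h, diamonds are genes whose intervals differ by the contrast, and the dotted line marks equal change. FOS, EGR1 and ZFP36 lie far to the right near or below zero on the y axis, DDIT4 at 1.08 and -1.0, and PLAT, TAGLN and MIR92A-1 in the upper left; the axes share the 0.5 h arrays.

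The genes that rose differed in their means at 4 h, the next time sampled. DUSP5 (11.65 at 1 h and 9.71 at 4 h), HBEGF (10.86 and 9.01), RCAN1 (11.04 and 9.05) and TUFT1 (10.58 and 9.11) stood lower at 4 h, while PLAT (10.41 and 11.36) stood higher. CYP26A1 (10.18 and 10.35), SPRY1 (7.84 and 7.73) and MIR18A (5.33 and 5.21) stood close to their 1 h means. These values share the 1 h arrays with the comparison above and are given as a description.

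Many of the called probe sets carry no gene name, and 1 block of them moved together. The 1537 probe sets with IDs below the lowest ID that has a gene symbol hold 75 of the 142 rises, 4.88% of that block. The share was 0.263% for probe sets with 1 symbol and 0.252% for the remaining ones. Identical values counted once, the block holds 1435 distinct profiles, so some of its rises are copies. The whole block shifted: its median difference was 0.37, with 78.2% of the differences above 0, after a median change of -0.22 from 0 to 0.5 h. Its median signal was 4.26, 4.02 and 4.27 on the arrays at 0.5 h and 4.86, 4.61 and 4.57 at 1 h, against 4.44, 4.57 and 4.37 at 0 h. For probe sets with 1 symbol the median signal ran from 6.40 to 6.46 at 0.5 h and from 6.34 to 6.40 at 1 h. The sources used here do not say what these probe sets read, and the part of the block in the results for named genes was not tested. Leaving it out of the fit changes no difference of a named gene. It changes only the spread shared over probe sets and the set over which p is adjusted. It therefore cannot show whether the shift of the block touched the named genes. With the block of IDs left out before the fit, a choice made after the data were seen, 53 probe sets rose and 5 fell, 29 of the 33 rising genes and 3 of the 6 falling genes kept their call, and RCAN1, RNF39, SPRY1, TAGLN, BBC3, KCNK5 and MYLIP lost it.

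**Figure D4:**
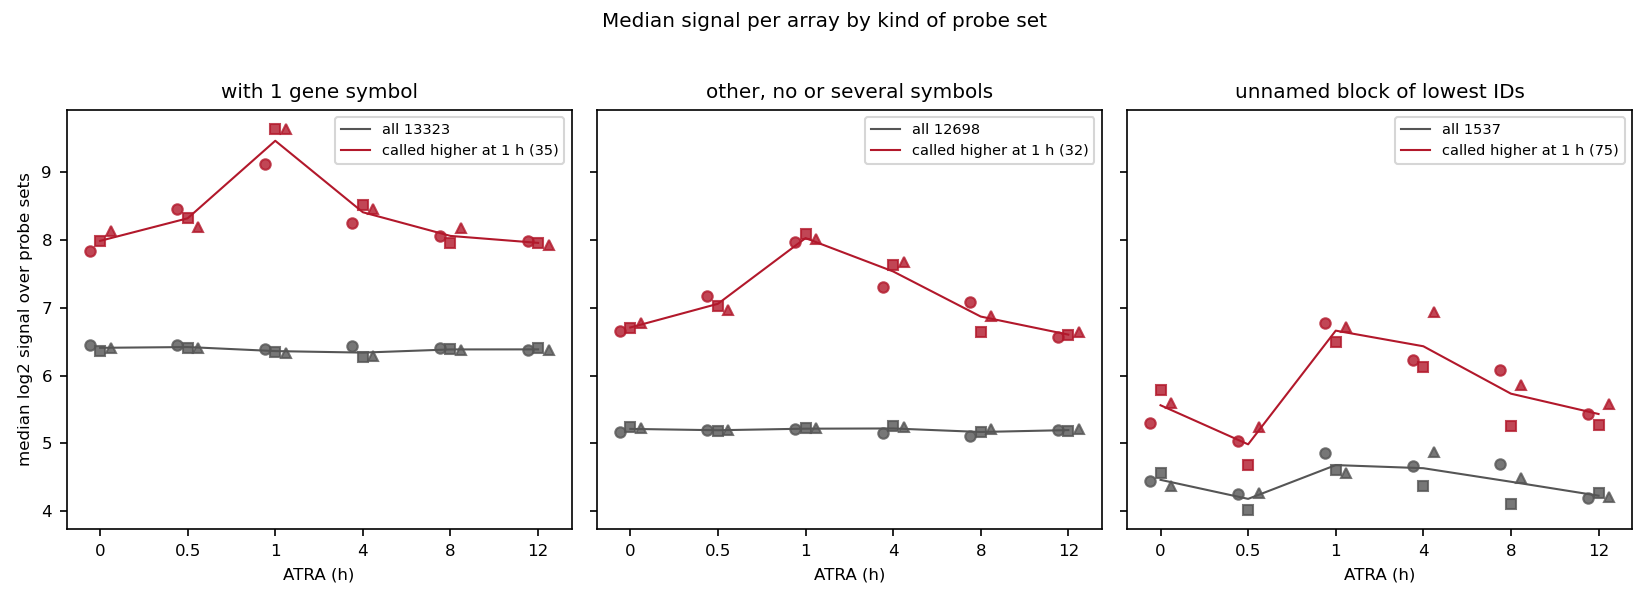
Median log2 signal per array (y axis) at each time of ATRA (x axis) over probe sets with 1 gene symbol (left), other probe sets with no or several symbols (middle) and the unnamed block of lowest IDs (right); grey covers all probe sets of the kind and red those called higher at 1 h, circles, squares and triangles are replicates 1, 2 and 3. Grey medians are level on the left and in the middle, and on the right they dip at 0.5 h, to between 4.02 and 4.27, and rise at 1 h, to between 4.57 and 4.86.

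Among the unnamed probe sets outside that block, the largest rise was that of probe set 15351119, from a mean of 9.38 at 0.5 h to 11.33 at 1 h (1.95 ± 0.26, adjusted p = 0.00422). It kept its call in all 6 fits without 1 array, and its means were 7.29 at 0 h and 8.50 at 4 h. Probe set 15266898, unnamed as well, had the pattern of EGR1 and ZFP36: it changed by 3.05 in the first interval and 0.39 in the second (contrast -2.66 ± 0.31, adjusted p = 0.00504).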

How the data were processed

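RNA of LLC-PK1 cells was measured on 18 Affymetrix arrays, 3 at each of 6 times. The deposited values are log2 signals, 1 per probe set and array; the submitters' processing notes name Transcriptome Analysis Console 2.0.0.9, and those sources do not name the normalization. That the values are on the log2 scale was read from their range, and they were used as deposited. Of 27558 probe sets, 13323 have 1 gene symbol in the platform annotation, 357 have several and 13878 have none; a gene with several probe sets is represented by that with the highest mean, which leaves 12361 genes. Sequences and coordinates were not used here.

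A model with 1 mean per time was fitted to all 18 arrays in limma 3.58.1 (R 4.3.3). The 1 h arrays were compared with the 0.5 h arrays by the two-sided moderated test, with Benjamini-Hochberg adjustment over all probe sets and a threshold of 0.05. The code was run on simulated data with independent noise. Those data hold no replicate effect and no shared shift of unnamed probe sets, so they do not cover these features of the arrays. Comparisons of 0.5 h with 0 h and of 4 h with 1 h share arrays with it and are given as values. Calls from 0 to 0.5 h come from the same fit and are given as a description. The labels give each time replicates 1, 2 and 3. Deviations from the time means at 0.5 and 1 h correlated at 0.179 to 0.424 in the 3 pairs with the same number. For different numbers they correlated at -0.364 to 0.135. Over all 6 times, which the block fit uses, the ranges overlapped. They were -0.047 to 0.507 for the same number (median 0.242) and -0.444 to 0.255 for different numbers (median -0.15). The numbers were taken to pair the arrays in a fit with the number as a block. Differences, SE and adjusted p are from the fit without it unless the block is named. The block fit is given where it changed the call on a gene named here. Not every gene called only with the block is named.

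Genes named are the 15 largest called rises and falls whose times did not overlap, up to 4 called members of each list, 42 fixed genes (35 measured) and the 5 called genes per direction whose 2 intervals differed most. These make 57 genes, 30 of them called. The other called genes, the remaining microRNA genes, and DUSP10, MAFF, PLAUR, ADM, TNFAIP3, BHLHE40, JAG1 and the list members given only by a difference were named after their values were seen. The comparison and the lists were chosen with earlier results of these data known. 1 called gene is counted but not reported here by name.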

Additional observations from a re-analysis of the deposited data

Results flagged for a closer look

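A test of the difference between the change from 0.5 to 1 h and the change from 0 to 0.5 h (second minus first, log2 scale, limma) singled out 11 probe sets. Second changes were the lower for FOS (-3.99), probe set 15266898 (-2.66), EGR1 (-2.39), ZFP36 (-2.34) and DDIT4 (-2.08). They were the higher for RNF220 (1.99) and for 5 unnamed probe sets of the lowest IDs: 15181409 (1.63), 15180259 and 15180557 (2.53 each, with identical values), 15180321 (3.12) and 15182729 (3.51). All 11 were also called with the replicate block. DDIT4 and probe set 15266898 kept the call in 8 of 9 fits without 1 array, EGR1 in 7, FOS and ZFP36 in 6, probe set 15182729 in 2 and RNF220 in 1. Without replicate 1 of 0.5 h none of the 11 was called.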

How the results depend on the processing

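Against 142 rises and 12 falls of probe sets between 0.5 and 1 h, fits without 1 array gave 36 to 77 rises and 1 to 5 falls, and called 10 to 26 of the 57 genes of the naming rule, against 30. The 6 arrays alone gave 67 rises, 0 falls and 8 such genes. With the replicate number as a block there were 221 rises and 27 falls, and without 1 array each 65 to 120 (90 without replicate 3 of 0.5 h) and 2 to 9. An adjusted p under 0.01 left 23 rises and 1 fall, a 2-fold minimum 1 fall, 1 probe set per named gene 33 rises and 4 falls, and leaving out dim probe sets gave 21 falls. Without the unnamed probe sets of lowest IDs, an alternative chosen after seeing the data like the block without 1 array, there were 53 rises and 5 falls. Median centring, quantile normalization, a trended or robust prior and identical profiles counted once stayed within 1.5 times of both counts.

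The contrast of the intervals (6 higher, 5 lower) gave 0 to 9 higher and 0 to 10 lower without 1 array, 24 and 12 on its own 9 arrays, 8 lower with the replicate block, and 1 higher without dim probe sets or without the lowest IDs. Some uncalled genes changed sign without 1 array. Their ranges over these fits were -0.2148 to 0.9312 for EGR2, -0.0563 to 0.533 for IER2, -0.0246 to 0.5043 for ZFP36, -0.0177 to 0.6897 for DUSP1, -0.1679 to 0.1882 for ID2 and -0.491 to 0.2263 for ADM. All but ADM turned negative without replicate 3 of 1 h, IER2 (there -0.055) also without replicate 1 of 0.5 h (-0.0563), and ADM turned positive without replicate 2 of 0.5 h (0.0002) and without replicate 1 of 1 h. The cause was not tested. The medians of proteases, ribosomal proteins, ribosome biogenesis, stress and circadian genes lie close enough to 0 to change sign under another scaling. Precision is limited by 3 arrays per time, and dim probe sets lie near background.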
